A study of Homo sapiens with 24 samples.

Results

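The genes of MHC class I antigen presentation examined here are 9: the heavy chain genes HLA-B, HLA-C and HLA-E, the light chain gene B2M, the transporter genes TAP1 and TAP2, TAPBP, ERAP1 and NLRC5. They were chosen by symbol, with earlier results of these data known, and all 9 were found among the 58174 genes listed in each of the 4 tables. The data are total RNA-seq of the cancer cell lines A549 (lung adenocarcinoma), ES2 (ovarian clear cell adenocarcinoma), MV3 (amelanotic melanoma) and PANC1 (pancreatic ductal adenocarcinoma), each with 3 libraries transfected with a control siRNA (siC) and 3 with pooled siRNAs that target IGF2BP1 (siI1). The product of IGF2BP1 binds RNA, is typical of embryonic tissue and is made again by many tumours, and the study looked for transcripts that depend on it. RNA was taken 72 h after transfection, or 96 h in PANC1, so that the later time and that line cannot be told apart. Each line is an established culture, and the labels name no treatment besides the siRNA. Levels are given as FPKM, that is, fragments per kilobase of the listed length of a gene, relative to the scaled size of the library.

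MHC class I molecules show short peptides from the inside of a cell to CD8 T cells. Proteasomes cut proteins into peptides, the TAP1 and TAP2 transporter carries them into the endoplasmic reticulum, the aminopeptidase ERAP1 trims them, and tapasin, the product of TAPBP, helps to load them onto a heavy chain paired with beta-2-microglobulin. The genes are switched on together by interferons and by the transactivator NLRC5, and many tumours lower them, which hides the cells from T cells.

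The upstream sequences of 4 of the genes are shown because the genes share motifs there. Of these 4, HLA-B, HLA-C and B2M rose in ES2 after the knockdown, and TAPBP did not pass there. ERAP1 and HLA-E also rose in ES2 and are not shown. Whether the motifs bear on any change was not tested. RefSeq promoter entries (GRCh38.p14) matched 7 of the 9 genes, with 9 annotated starts. The 250 bases upstream of each start were searched on both strands for GAAANNGAA and GAANNGAAA, both forms of the interferon-stimulated response element (ISRE), which is bound by interferon regulatory factors. The search also covered CCAAT, the core of the Y box, and TGACG, the core of the X2 box, which are parts of the promoter module through which NLRC5 acts. The motifs were chosen with the promoters known. At least 1 ISRE match was present at 7 of the 9 starts and in each of the 7 genes, against 12.4% of 35116 promoter windows of the same length. HLA-B, HLA-C and B2M also held both CCAAT and TGACG. An ISRE match together with both of these was found in 0.746% of windows. In the lines below, which run 5′ to 3′ on the gene's strand and end at the base before the start, capitals mark the ISRE matches. In B2M and TAPBP, neighbouring matches overlap and form a single run of capitals. A match is a description of letters and was not tested as a site.
HLA-B, chr6:31357180-31357429, minus strand: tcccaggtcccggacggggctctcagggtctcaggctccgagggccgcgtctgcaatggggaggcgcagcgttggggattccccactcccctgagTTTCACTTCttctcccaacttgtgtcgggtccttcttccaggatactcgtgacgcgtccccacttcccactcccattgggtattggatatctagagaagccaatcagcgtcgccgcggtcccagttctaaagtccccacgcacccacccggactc
HLA-C, chr6:31272093-31272342, minus strand: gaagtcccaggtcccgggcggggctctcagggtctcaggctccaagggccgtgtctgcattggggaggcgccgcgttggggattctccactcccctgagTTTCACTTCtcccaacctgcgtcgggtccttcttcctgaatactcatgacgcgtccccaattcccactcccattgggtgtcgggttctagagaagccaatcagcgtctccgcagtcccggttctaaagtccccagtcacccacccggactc
B2M, chr15:44711267-44711516, plus strand: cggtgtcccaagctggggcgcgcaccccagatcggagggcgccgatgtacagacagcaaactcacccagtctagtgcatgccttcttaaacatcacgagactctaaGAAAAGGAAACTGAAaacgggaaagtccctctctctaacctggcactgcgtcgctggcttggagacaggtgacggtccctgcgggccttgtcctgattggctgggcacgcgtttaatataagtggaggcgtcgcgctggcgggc
TAPBP, chr6:33314079-33314328, minus strand: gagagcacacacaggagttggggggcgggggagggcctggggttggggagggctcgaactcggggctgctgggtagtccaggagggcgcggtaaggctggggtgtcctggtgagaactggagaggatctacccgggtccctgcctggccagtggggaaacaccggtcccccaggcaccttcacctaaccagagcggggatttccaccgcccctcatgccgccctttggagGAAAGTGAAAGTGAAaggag
The match lay 155 bases upstream of the start in HLA-B and 151 bases upstream in HLA-C, and the first match lay 144 bases upstream in B2M and 20 bases upstream in TAPBP. ERAP1 had 1 start with a match and 1 without.

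Knockdown was seen in every line. The IGF2BP1 level was 39.7 ± 0.0742 FPKM in siC of A549 and fell to 15.6 ± 0.674 FPKM in siI1. The corresponding levels were 13.1 ± 0.915 and 4.14 ± 0.102 FPKM in ES2, 9.26 ± 0.325 and 2.91 ± 0.126 FPKM in MV3, and 11.1 ± 0.150 and 2.78 ± 0.0800 FPKM in PANC1 (mean ± SD, n = 3 per group). The libraries of A549 had 3105215 to 4553326 reads in genes, those of ES2 6421764 to 8419467, those of PANC1 6532175 to 8472851 and those of MV3 15572492 to 20082702, so a low level is measured least well in A549. Leukocyte genes were close to absent: PTPRC, which encodes CD45, was at most 0.0332 FPKM in any library, and CD3E and MS4A1 were at 0 in all 24. The 8 leukocyte markers summed to 2.66 to 3.94 FPKM in siC and 4.45 to 6.51 FPKM in siI1 of A549, most of it CD14 and ITGAM, and to at most 0.956 FPKM in the other lines. The keratins KRT8, KRT18 and KRT19, epithelial markers that do not tell lung from pancreas, were high in A549 and PANC1. The 4 lung markers summed to at most 0.411 FPKM in A549 and the 7 melanocyte markers to at most 0.358 FPKM in MV3. Of the pancreatic ductal markers in PANC1, KRT19 was at least 547 FPKM and SOX9 at least 16.9 FPKM. MUC1 was at most 1.12 FPKM there and CFTR at most 0.0326 FPKM. The ovarian markers PAX8, WT1 and MUC16 did not exceed 0.262 FPKM in ES2. The remaining gene of the ovarian list, ARID1A, measured 3.28 to 5.84 FPKM in ES2 and 3.98 to 6.42 FPKM in A549. It measured 5.87 to 7.57 FPKM in MV3 and 5.16 to 7.85 FPKM in PANC1, so it does not mark ES2 here. The sum of the 6 epithelial markers changed with the siRNA, from 1144 to 1249 FPKM in siC to 526 to 557 FPKM in siI1 of A549. In ES2 it went from 151 to 167 FPKM to 194 to 221 FPKM (most of it KRT7, with means of 103 and 153 FPKM). In PANC1 it went from 1342 to 1765 FPKM to 2061 to 2214 FPKM, and in MV3 the groups overlapped. The means of KRT8, KRT18 and KRT19 rose in PANC1, whereas those of the remaining markers fell. CDH1 went there from 4.55 to 1.203 FPKM, EPCAM from 3.59 to 1.94 FPKM and KRT7 from 2.88 to 2.19 FPKM. The part of the epithelial markers in the results was not tested. In bulk RNA, fewer cells that express a gene and less of its RNA per cell cannot be told apart.

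The class I genes called as changed were not the same in the 4 lines, and the test of the difference itself is given further below. In ES2, 5 of the 7 genes that could be tested rose and none fell, where 10.5% of all tested genes rose and 13.0% fell. In A549, none of 7 rose and 1 fell (5.93% and 7.83% of all genes), in MV3, 2 of 8 rose and 1 fell (16.3% and 19.5%), and in PANC1, none of 7 rose and 2 fell (11.3% and 13.4%). The median log2 fold change of the tested class I genes was 0.52 in ES2, -0.26 in A549, 0.0011 in MV3 and 0.19 in PANC1, where the median of all tested genes was -0.02, -0.01, 0.01 and -0.04. A gene was tested where its mean over the 6 libraries of a line was at least 0.5 FPKM, and called where the Benjamini-Hochberg adjusted p of the limma test was under 0.05. Fold changes are siI1 minus siC on the scale of log2(FPKM + 0.5), which understates the change of low genes. At an unadjusted p under 0.05, the counts were 5 higher and 0 lower in ES2, 0 and 1 in A549, and 1 (B2M) and 2 in PANC1, and limma voom on recovered reads gave 6 and 0, 0 and 2, and 1 and 2. Genes left untested were HLA-B and TAP2 in A549, TAP1 and TAP2 in ES2, TAP1 in MV3, and TAP2 and NLRC5 in PANC1.

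**Figure D1:**
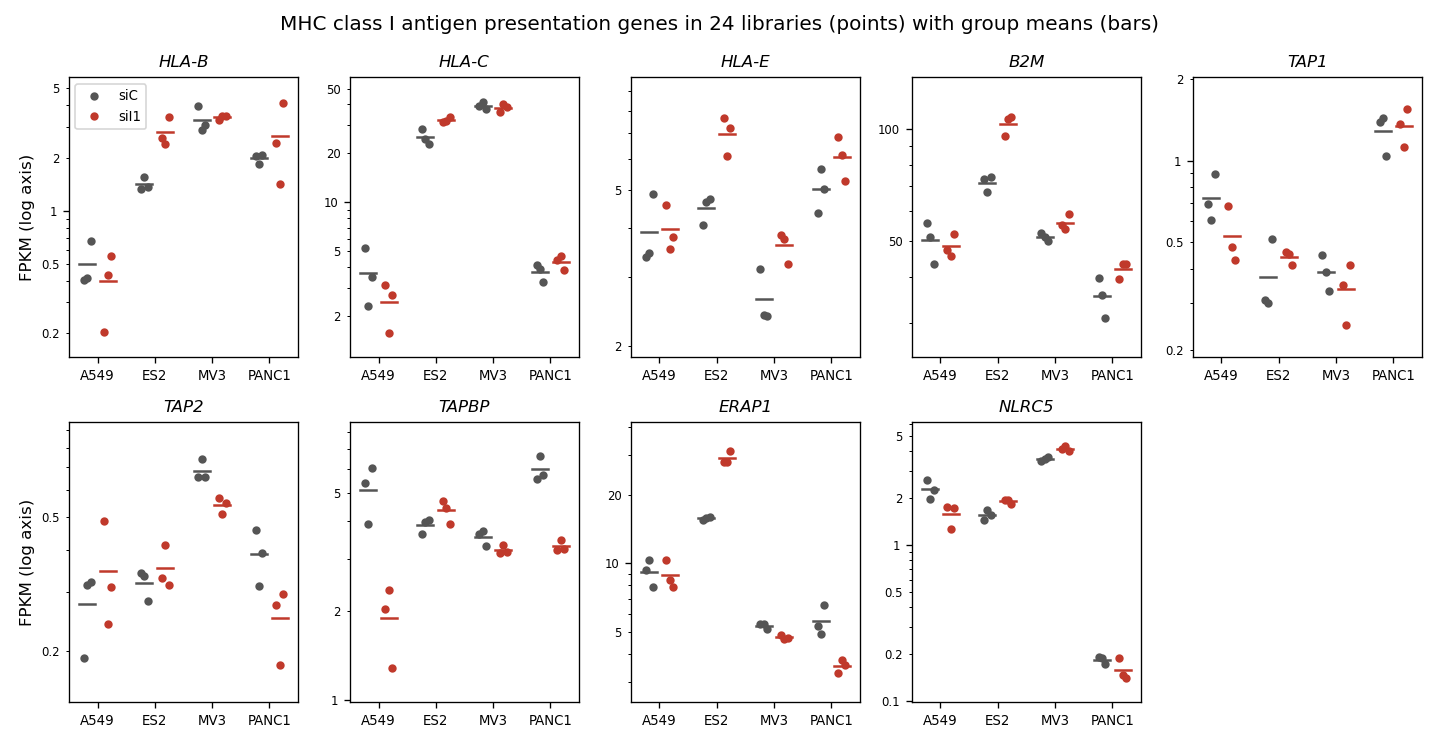
FPKM of the 9 class I genes (log axes, 1 panel per gene) in each of the 24 libraries, with siC in grey and siI1 in red, points for libraries and bars for group means. All siI1 points lie above all siC points in ES2 for HLA-B, HLA-C, HLA-E, B2M, ERAP1 and NLRC5, and below them in A549 and PANC1 for TAPBP.

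**Figure D2:**
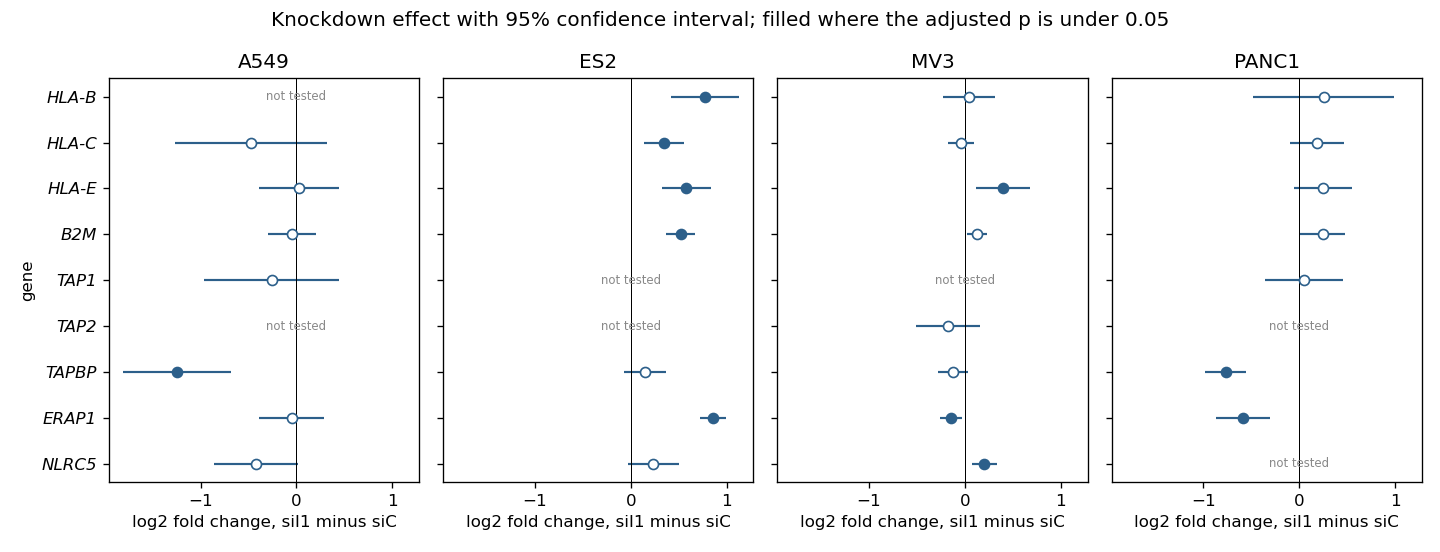
Log2 fold change of each class I gene, siI1 minus siC, with its 95% confidence interval in each of the 4 lines, filled where the adjusted p was under 0.05. The 5 filled points of ES2 lie between 0.35 and 0.86, whereas the filled points of A549 and PANC1 lie below 0.

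HLA-B (chromosome 6, 31353872 to 31367067, minus strand) encodes a classical heavy chain, which holds the peptide, and was low in all 4 lines. It measured 1.33, 1.55 and 1.36 FPKM in siC and 2.59, 2.41 and 3.41 FPKM in siI1 in ES2, where it rose, with a log2 fold change of 0.78 ± 0.15 (SE; adjusted p = 0.0122). The highest siC library stood below the lowest siI1 library, and 26 to 88 reads per library lie behind these values. In PANC1 it measured 2.05, 1.85 and 2.07 FPKM in siC and 2.44, 1.42 and 4.13 FPKM in siI1. The siI1 libraries lay on both sides of the siC libraries, and the 95% interval of the log2 fold change, -0.48 to 0.99, covers both directions. In MV3 the log2 fold change was 0.05 ± 0.11 (SE; adjusted p = 0.791). In A549 HLA-B had 2 to 9 reads per library, and no difference was detectable at this depth.

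HLA-C (chromosome 6, 31268749 to 31272130, minus strand) encodes a classical heavy chain that is also read by natural killer cells. In ES2 it measured 28.4, 24.4 and 22.7 FPKM in siC and 31.2, 31.5 and 33.4 FPKM in siI1. The groups did not overlap, with a log2 fold change of 0.35 ± 0.09 (SE; adjusted p = 0.0324), the smallest rise of the 5 in this line. The call rested on the full set of libraries: it remained without siC replicate 1 and was lost without any 1 of the other 5, siC replicates 2 and 3 and siI1 replicates 1, 2 and 3 (adjusted p 0.0712 to 0.106). It was also lost without a filter (0.0542) and with the spread shared over all 24 libraries (0.201). In MV3, where HLA-C was the highest of the 3 heavy chain genes, it measured 39.0, 41.6 and 37.4 FPKM in siC and 35.8, 40.1 and 38.7 FPKM in siI1. The log2 fold change was -0.04 ± 0.06 (SE; adjusted p = 0.598) with a 95% interval of -0.18 to 0.09, so a change as large as the one in ES2 lies outside it. In A549 the values ran from 1.58 to 5.28 FPKM and in PANC1 from 3.23 to 4.71 FPKM, with overlapping groups and log2 fold changes of -0.47 ± 0.33 (SE; adjusted p = 0.414) and 0.19 ± 0.12 (SE; adjusted p = 0.292).

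HLA-E (chromosome 6, 30489509 to 30494194, plus strand) encodes a non-classical heavy chain that presents signal peptides of other class I molecules to natural killer cells. In ES2 it measured 4.08, 4.66 and 4.75 FPKM in siC and 7.65, 6.11 and 7.20 FPKM in siI1. It rose in all 3 siI1 libraries, by a log2 fold change of 0.58 ± 0.10 (SE; adjusted p = 0.0104). In MV3 it measured 3.15, 2.40 and 2.38 FPKM in siC and 3.85, 3.75 and 3.25 FPKM in siI1. The groups were separate by a small margin, with a log2 fold change of 0.39 ± 0.12 (SE; adjusted p = 0.0403), and the call was lost without siC replicate 2 or 3 or siI1 replicate 1 or 2 (adjusted p 0.0985 to 0.117). In A549 and PANC1 the groups overlapped, with log2 fold changes of 0.03 ± 0.17 (SE; adjusted p = 0.938) and 0.25 ± 0.13 (SE; adjusted p = 0.196).

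B2M (chromosome 15, 44711358 to 44718851, plus strand) encodes beta-2-microglobulin, the light chain that every class I heavy chain needs to reach the cell surface. In ES2 it measured 73.1, 67.6 and 74.5 FPKM in siC and 95.4, 106 and 108 FPKM in siI1. The lowest siI1 library was well above the highest siC library, and B2M rose by a log2 fold change of 0.52 ± 0.06 (SE; adjusted p = 0.00273). In MV3 it measured 52.3, 51.3 and 49.98 FPKM in siC and 55.0, 53.7 and 59.0 FPKM in siI1. The groups did not overlap, but the log2 fold change of 0.12 ± 0.04 (SE; adjusted p = 0.064) did not pass. It did with voom (0.13, adjusted p = 0.0138) and at the same sum over protein-coding genes (0.26, adjusted p = 0.00267). In PANC1 it measured 39.8, 35.7 and 31.0 FPKM in siC and 39.3, 43.3 and 43.2 FPKM in siI1. Here the lowest siI1 library lay below the highest siC library, with a log2 fold change of 0.24 ± 0.10 (SE; adjusted p = 0.123). B2M in PANC1 passed as higher with voom (0.25, adjusted p = 0.0282) and with the limma spread shared over all 24 libraries (adjusted p = 0.0356). At the same sum over all genes it passed as lower (-0.50, adjusted p = 0.0235). A549 gave -0.05 ± 0.10 (SE; adjusted p = 0.828).

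HLA-B, HLA-C and HLA-E together summed to 31.1 ± 2.54 FPKM in siC and 41.9 ± 2.02 FPKM in siI1 of ES2 (SD, n = 3 per group). The ratio of this sum to B2M was 0.435 ± 0.0412 in siC and 0.407 ± 0.0286 in siI1, a difference smaller than the spread between libraries. In A549 the sum was 8.09 ± 1.66 FPKM in siC and 6.84 ± 1.18 FPKM in siI1, and the libraries of both groups overlapped, as did the ratios, at 0.121 to 0.209 and 0.122 to 0.167. In MV3 the sum was 45.3 ± 2.1 and 45.2 ± 2.16 FPKM, again with overlap. In PANC1 it was 10.8 ± 0.577 and 13.1 ± 0.735 FPKM, where the siI1 libraries lay above the siC libraries and the ratios, 0.265 to 0.333 and 0.283 to 0.349, overlapped. HLA-C gave 86.9% ± 2.12 of the sum in siC of MV3 and 80.9% ± 2.79 in siC of ES2, against 44.6% ± 11.8 in A549 and 34.7% ± 3.88 in PANC1. HLA-E gave the largest share in siC of PANC1, 46.7% ± 4.43, and 49.2% ± 10.4 in A549. The levels are per listed gene length, which for B2M is 6089 bases over all annotated exons and longer than its usual mRNA, so its level here is a low estimate beside the heavy chains. The heavy chain genes are near-identical to each other in parts and vary between people, and reads that fit several of them or differ from the reference may be counted for another one or lost, so the shares are uncertain.

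**Figure D3:**
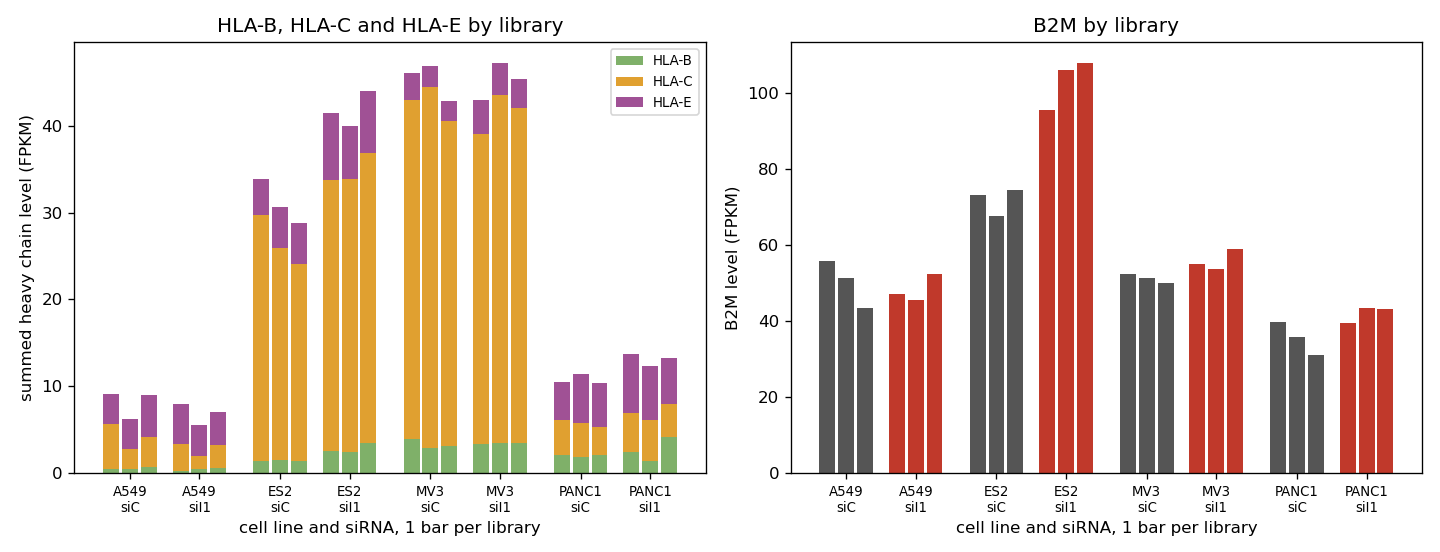
Left, summed FPKM of HLA-B, HLA-C and HLA-E in each library, stacked by gene; right, FPKM of B2M in the same libraries, grey for siC and red for siI1. The stacks of ES2 rise from about 31.1 to 41.9 FPKM on average, and HLA-C makes up most of each stack of ES2 and MV3.

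TAP1 (chromosome 6, 32845209 to 32853816, minus strand) and TAP2 (chromosome 6, 32821833 to 32838739, minus strand) encode the subunits of the peptide transporter. Both were low in every line. TAP1 was highest in PANC1, where it measured 1.40, 1.44 and 1.04 FPKM in siC and 1.37, 1.13 and 1.55 FPKM in siI1, with a log2 fold change of 0.05 ± 0.17 (SE; adjusted p = 0.871). In A549 it measured 0.696, 0.604 and 0.897 FPKM in siC and 0.679, 0.480 and 0.432 FPKM in siI1 from 7 to 18 reads per library, with a log2 fold change of -0.26 ± 0.29 (SE; adjusted p = 0.626). TAP1 stayed between 0.300 and 0.515 FPKM in ES2 and between 0.248 and 0.450 FPKM in MV3 and was not tested there. TAP2 could be tested in MV3, where it measured 0.655, 0.739 and 0.654 FPKM in siC and 0.569, 0.510 and 0.550 FPKM in siI1. All siI1 libraries were below all siC libraries, but the log2 fold change of -0.18 ± 0.14 (SE; adjusted p = 0.354) did not pass. In ES2, where the heavy chains and B2M rose, TAP2 had 13 to 19 reads per library and overlapping groups, and no difference was detectable at this depth. In PANC1 TAP2 measured 0.456, 0.313 and 0.391 FPKM in siC and 0.275, 0.182 and 0.296 FPKM in siI1, from 7 to 21 reads per library, with the siI1 libraries below the siC libraries and no test.

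TAPBP (chromosome 6, 33299694 to 33314284, minus strand) encodes tapasin, which bridges the transporter and the heavy chain and selects tightly bound peptides. In PANC1 it measured 5.58, 6.62 and 5.75 FPKM in siC and 3.21, 3.45 and 3.24 FPKM in siI1. Both groups were tight and far apart, a log2 fold change of -0.77 ± 0.09 (SE; adjusted p = 0.00271), and the fall passed in each fit that left out 1 library (adjusted p at most 0.0151). In A549 it measured 5.38, 3.93 and 6.05 FPKM in siC and 2.03, 2.35 and 1.28 FPKM in siI1. The groups were apart and the log2 fold change was -1.24 ± 0.23 (SE; adjusted p = 0.0199), the largest in size among the tested class I genes in any line, but siI1 replicate 3 had 23 reads and the call was lost without siC replicate 1 or 3 or siI1 replicate 1 (adjusted p 0.0520 to 0.0732). In ES2 TAPBP measured 3.63, 3.98 and 4.03 FPKM in siC and 4.68, 4.44 and 3.93 FPKM in siI1. Unlike the heavy chains and B2M, these groups overlapped, with a log2 fold change of 0.15 ± 0.09 (SE; adjusted p = 0.303) and a 95% interval of -0.07 to 0.36. In MV3 the log2 fold change was -0.13 ± 0.06 (SE; adjusted p = 0.172).

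ERAP1 (chromosome 5, 96760810 to 96808100, minus strand) encodes the aminopeptidase that trims peptides to the length class I molecules hold. It gave the clearest rise in ES2, from 15.5, 15.8 and 16.1 FPKM in siC and 28.0, 28.0 and 31.2 FPKM in siI1. No library was near the other group, and the log2 fold change was 0.86 ± 0.06 (SE; adjusted p = 0.000353), a fold of 1.81. In PANC1 the direction was the opposite, with 5.31, 4.88 and 6.53 FPKM in siC and 3.28, 3.75 and 3.57 FPKM in siI1. The groups were separate and ERAP1 fell, by a log2 fold change of -0.58 ± 0.12 (SE; adjusted p = 0.0156), although the adjusted p was 0.0548 without siI1 replicate 1. In MV3 it measured 5.38, 5.39 and 5.11 FPKM in siC and 4.84, 4.66 and 4.67 FPKM in siI1. The fall was small, -0.15 ± 0.05 (SE; adjusted p = 0.0491), and was lost without siC replicate 1 or 2 or any 1 of siI1 replicates 1, 2 and 3 (adjusted p 0.0758 to 0.140). It was also lost, at -0.03 and adjusted p = 0.730, when libraries were scaled to the same sum over protein-coding genes. In A549 the groups overlapped, with a log2 fold change of -0.05 ± 0.14 (SE; adjusted p = 0.863).

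NLRC5 (chromosome 16, 56989485 to 57083531, plus strand) encodes the transactivator of class I genes. In MV3 it measured 3.46, 3.55 and 3.70 FPKM in siC and 4.15, 4.33 and 4.05 FPKM in siI1. The siI1 libraries were all higher, with a small log2 fold change of 0.20 ± 0.05 (SE; adjusted p = 0.0302), a call that was lost without siC replicate 1 or 2 or any 1 of siI1 replicates 1, 2 and 3 (adjusted p 0.0596 to 0.0973). In ES2 it measured 1.46, 1.67 and 1.56 FPKM in siC and 1.97, 1.96 and 1.84 FPKM in siI1. These groups did not overlap, but the log2 fold change of 0.23 ± 0.11 (SE; adjusted p = 0.184) did not pass. In A549 it measured 2.63, 1.99 and 2.25 FPKM in siC and 1.76, 1.28 and 1.73 FPKM in siI1, also without overlap and in the other direction, with a log2 fold change of -0.42 ± 0.18 (SE; adjusted p = 0.197) that did not pass. Voom on the recovered reads called both, at 0.30 (adjusted p = 0.0465) in ES2 and at -0.56 (adjusted p = 0.0039) in A549. In PANC1 NLRC5 was low, 0.140 to 0.191 FPKM from 11 to 20 reads per library, and was not tested.

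Whether the knockdown effect itself differed between lines was tested over all 24 libraries for the 5 class I genes tested in every line, with a limma F test on the 3 differences between lines. ERAP1 (adjusted p = 2.76e-06), TAPBP (7.31e-05) and B2M (0.00764) differed, where 45.0% of 12816 genes did. HLA-C (0.0876) and HLA-E (0.123) did not pass. For ERAP1 the log2 fold change in ES2 exceeded that in PANC1 by 1.44 (95% interval 1.14 to 1.74) and that in A549 by 0.91 (interval of A549 minus ES2, -1.21 to -0.60). For TAPBP the effect in A549 was below that in ES2, a difference of -1.39 (-1.81 to -0.97), and below that in MV3, -1.11 (-1.53 to -0.70). For B2M the difference of ES2 from MV3 was 0.40 (0.13 to 0.66). The intervals are not adjusted for the 6 pairs of lines. Each effect was taken within its own table.

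The deposited scale bears on these directions. Scaling the libraries to the same sum over protein-coding genes moved the median over all genes to a log2 fold change of 0.11 in ES2 and 0.13 in MV3, and the split of called genes from 1772 higher and 2201 lower to 2924 and 1295 in ES2 and from 2663 and 3190 to 4409 and 1894 in MV3. In ES2 the same number of class I genes, 5, was higher and none was lower on that scale, whereas in MV3 3 were higher and none was lower. In PANC1 protein-coding genes made up 25.5% to 32.8% of summed FPKM in siC and 15.8% to 19.2% in siI1, and scaling to the same sum over all genes moved the median of all genes to -0.68 and the split from 1796 higher and 2131 lower to 96 and 8870. On that scale 4 class I genes were lower in PANC1, and HLA-C and B2M turned from 0.19 and 0.24 to -0.49 and -0.50. The same scale moved the split in ES2 to 1780 higher and 1419 lower. The fall of TAPBP and ERAP1 in PANC1 was called on all 3 scales, with 2 genes lower and none higher on the protein-coding scale.

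The order of the control levels differed from gene to gene. The tables were normalised separately, so these levels are described without a test. B2M was highest in ES2 (71.7 ± 3.62 FPKM), followed by MV3 (51.2 ± 1.18) and A549 (50.1 ± 6.36), whose libraries overlapped, and PANC1 (35.5 ± 4.40). HLA-C was highest in MV3 (39.4 ± 2.1), with ES2 next (25.2 ± 2.94) and PANC1 (3.74 ± 0.454) and A549 (3.68 ± 1.5) overlapping. HLA-B was at 3.31 ± 0.580 in MV3, 1.99 ± 0.122 in PANC1, 1.41 ± 0.119 in ES2 and 0.496 ± 0.154 in A549, with no overlap between neighbours. HLA-E was highest in PANC1 (5.04 ± 0.649), ES2 (4.50 ± 0.364) and A549 (3.92 ± 0.859), which overlapped in this order, and lowest in MV3 (2.64 ± 0.437). ERAP1 was highest in ES2 (15.8 ± 0.284), then A549 (9.21 ± 1.23), with PANC1 (5.58 ± 0.858) and MV3 (5.29 ± 0.155) overlapping. NLRC5 was separate in each line, at 3.57 ± 0.121 in MV3, 2.29 ± 0.324 in A549, 1.56 ± 0.108 in ES2 and 0.184 ± 0.00989 in PANC1. PANC1 thus combined the lowest NLRC5 with the highest TAP1 (1.29 ± 0.218) and TAPBP (5.98 ± 0.561), and TAPBP overlapped from each line to the next, with A549 at 5.12 ± 1.08, ES2 at 3.88 ± 0.216 and MV3 at 3.55 ± 0.216. TAP1 followed at 0.732 ± 0.150 in A549 and at 0.391 ± 0.0591 and 0.374 ± 0.122 in MV3 and ES2, which overlapped. TAP2 was at 0.683 ± 0.0487 in MV3 and then at 0.387 ± 0.0721 in PANC1, 0.319 ± 0.0323 in ES2 and 0.276 ± 0.0729 in A549, overlapping in this order. On the scale of the same sum over protein-coding genes 13 of the 36 levels moved by more than 1 SD. There A549 stood above MV3 for B2M, still with overlap, while PANC1 stood clear of ES2 for HLA-E and TAP2, and TAPBP overlapped only between ES2 and MV3.

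In the wider pathway, the catalytic subunits of the proteasome cut the peptides. For the counts in the lists below, 10.5% of all tested genes rose and 13.0% fell in ES2. The shares were 5.93% and 7.83% in A549, 16.3% and 19.5% in MV3, and 11.3% and 13.4% in PANC1. The 3 constitutive catalytic subunits of the proteasome, PSMB5, PSMB6 and PSMB7, all fell in ES2 and in MV3 (median log2 fold change -0.37 and -0.29), 1 of 3 fell in A549 and none passed in PANC1 (limma; 1 higher and 1 lower at an unadjusted p under 0.05, and 0 by voom). The call in A549 was lost in each of the 6 fits that left out 1 library and without a filter. PSMB6 in ES2 measured 131, 141 and 132 FPKM in siC and 106, 98.4 and 107 FPKM in siI1. The groups were separate, with a log2 fold change of -0.37, adjusted p = 0.00431. PSMB7 in MV3 measured 161, 154 and 152 FPKM in siC and 113, 121 and 125 FPKM in siI1. It fell there by a log2 fold change of -0.38, adjusted p = 0.00136. Of the 5 immunoproteasome genes, which interferon gamma induces, PSMB10 rose in ES2 and no other passed in any line (limma; at an unadjusted p under 0.05, 2 were lower in A549, 1 was higher in MV3 and 1 was lower in PANC1, and by voom 1, 1 and 0). At the same sum over protein-coding genes 3 were higher in ES2 and 2 in MV3. PSMB10 measured 5.13, 6.09 and 6.13 FPKM in siC and 9.80, 10.4 and 10.1 FPKM in siI1 in ES2. The siI1 libraries were all higher, with a log2 fold change of 0.76, adjusted p = 0.00182, whereas its partners PSMB8 (-0.12, adjusted p = 0.768) and PSMB9 (0.48, adjusted p = 0.0782) did not pass. In PANC1, 3 of 6 other trimming and transport genes fell, among them ERAP2, the partner enzyme of ERAP1 (-0.86, adjusted p = 0.0176), and LNPEP (-0.53, adjusted p = 0.00532), and the median of the list was -0.25 where that of all genes was -0.04. In the other lines at most 1 of the 6 passed in a direction, namely NPEPPS higher in ES2, TPP2 lower in A549, and ABCB9 higher and THOP1 lower in MV3. With 1 library left out, the counts called in this list were 0 in A549, 0 to 1 in ES2 (0 in 5 of 6 fits), 1 to 2 in MV3 (1 in 5 of 6 fits) and 1 to 2 in PANC1.

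A further list held 6 genes of chaperones and folding factors in and around the loading complex, not all of them parts of it. Of these, CANX, the gene of calnexin, which holds newly made heavy chains, rose in 3 lines. It measured 243, 234 and 259 FPKM in siC and 312, 324 and 329 FPKM in siI1 in ES2. The log2 fold change was 0.39, adjusted p = 0.00357 there, 0.45, adjusted p = 0.00886 in A549 and 0.24, adjusted p = 0.00407 in MV3, while PANC1 gave -0.06, adjusted p = 0.419. CALR, which encodes calreticulin, fell in A549 (-0.39, adjusted p = 0.00264) and also in PANC1 (-0.40, adjusted p = 0.00711), the lines in which TAPBP also fell. PDIA3, the disulfide isomerase bound to tapasin, did not pass in any line. By count, 2 of 6 rose and 1 fell in ES2 (10.5% and 13.0% of all genes), 1 rose and 1 fell in A549 (5.93% and 7.83%), 2 rose in MV3 (16.3%) and 2 fell in PANC1 (13.4%). In MV3 the count was 1 to 3 with 1 library left out, and 4 were higher at the same sum over protein-coding genes. Among 20 other class I and class I-like genes, 7 to 9 were tested per line: none passed in ES2 (limma; 1 higher at an unadjusted p under 0.05, and 2 higher and 1 lower by voom), PROCR rose in A549, HFE fell in PANC1, and in MV3 FCGRT, MR1 and PROCR rose and MICB fell.

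Of 11 genes of interferon signalling, 10 were tested in ES2, where 6 rose and 1 fell (10.5% and 13.0% of all genes). Their median log2 fold change was 0.43. In MV3, 5 of 11 were higher and none lower in the limma fit (16.3% and 19.5%), nor was any lower at an unadjusted p under 0.05 or by voom. There were 2 higher and 3 lower of 11 in A549 (5.93% and 7.83%), and 2 higher and 3 lower of 10 in PANC1 (11.3% and 13.4%). JAK1, the kinase at the receptors, measured 16.2, 17.7 and 14.7 FPKM in siC and 29.6, 24.7 and 25.9 FPKM in siI1 in ES2. It rose in ES2 (0.70, adjusted p = 0.00368) and MV3 (0.47, adjusted p = 0.00174), as did the receptor gene IFNGR1 (0.53, adjusted p = 0.00763 and 0.38, adjusted p = 0.00833). SOCS1, a feedback inhibitor that interferons induce, measured 0.636, 0.622 and 0.566 FPKM in siC and 3.01, 2.26 and 2.61 FPKM in siI1 in ES2. It rose in ES2 (1.49, adjusted p = 0.00125), MV3 (0.84, adjusted p = 0.00285) and PANC1 (1.19, adjusted p = 0.0173). At the same sum over all genes, none of the list was higher in PANC1 and 6 were lower. The receptor gene IFNAR1 was the 1 gene of the list that fell in ES2, where no gene of the list was lower at the same sum over protein-coding genes, and it also fell in A549 (-0.80, adjusted p = 0.00757) and likewise in PANC1 (-0.85, adjusted p = 0.00932).

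Of the 13 transcription factors of class I genes, 12 were tested per line, and in the limma fits on the deposited scale 2 rose and 2 fell in ES2, 1 and 1 in A549, 2 and 1 in MV3, and 0 and 3 in PANC1 (2 and 4 there at an unadjusted p under 0.05 and by voom). At the same sum over all genes 10 were lower in PANC1, and at the same sum over protein-coding genes 5 were higher in MV3. For this list and the interferon-stimulated genes below, 10.5% of all tested genes rose and 13.0% fell in ES2. The shares were 5.93% and 7.83% in A549, 16.3% and 19.5% in MV3, and 11.3% and 13.4% in PANC1. IRF1, an interferon-induced factor that binds the ISRE, measured 4.61, 4.94 and 4.02 FPKM in siC and 7.44, 8.02 and 8.24 FPKM in siI1 in ES2. It rose there, by a log2 fold change of 0.74, adjusted p = 0.00263, and did not pass in the other lines (-0.11, adjusted p = 0.645, 0.10, adjusted p = 0.21 and 0.13, adjusted p = 0.572). CREB1 rose in ES2 and NFYA and NFYC fell, but no gene of the list was lower in ES2 at the same sum over all or over protein-coding genes. RFX5, whose product binds the X box, rose in MV3 (0.39, adjusted p = 0.00172) and fell both in A549 (-0.38, adjusted p = 0.0166) and in PANC1 (-0.36, adjusted p = 0.0286). Of 29 interferon-stimulated genes, 10 of 20 tested rose and 1 fell in ES2 (median 0.45), 4 rose and 4 fell of 21 in MV3 (8 and 1 at the same sum over protein-coding genes, and 5 to 9 in all with 1 library left out), 3 rose and 4 fell of 18 in PANC1, and none rose and 1 fell of 26 in A549 (median -0.29). In A549 the limma counts at an unadjusted p under 0.05 were 0 higher and 7 lower, and voom gave 0 and 11. IFITM1, a restriction factor in membranes, measured 0.288, 0.423 and 0.513 FPKM in siC and 5.12, 3.85 and 5.26 FPKM in siI1 in ES2. It rose by a log2 fold change of 2.53, adjusted p = 0.000371. IFIT1 rose in ES2 (0.75, adjusted p = 0.00534), MV3 (0.69, adjusted p = 0.00272) and PANC1 (0.51, adjusted p = 0.00799). At the same sum over all genes, no interferon-stimulated gene was higher in PANC1 and 11 were lower. DDX58, the gene of the RNA sensor RIG-I, was the 1 gene that fell in ES2 (-0.87, adjusted p = 0.000865).

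Among 10 genes that repress class I genes or promote turnover of their products, none passed in ES2 (limma; 2 lower at an unadjusted p under 0.05 and 2 by voom). Of all genes tested there, 10.5% rose and 13.0% fell. EZH2 and SUZ12, subunits of the repressive Polycomb complex, fell in PANC1 (-0.57, adjusted p = 0.0101 and -1.0, adjusted p = 0.00198) and MV3 (-0.39, adjusted p = 0.0161 and -0.24, adjusted p = 0.0497). In MV3 4 genes of the list fell and 1 rose on the deposited scale (19.5% and 16.3% of all genes). However, none fell and 3 rose when libraries were scaled to the same sum over protein-coding genes. With 1 library left out, 1 to 4 in all were called. TMEM127 fell in A549 (-0.69, adjusted p = 0.00222).

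**Figure D4:**
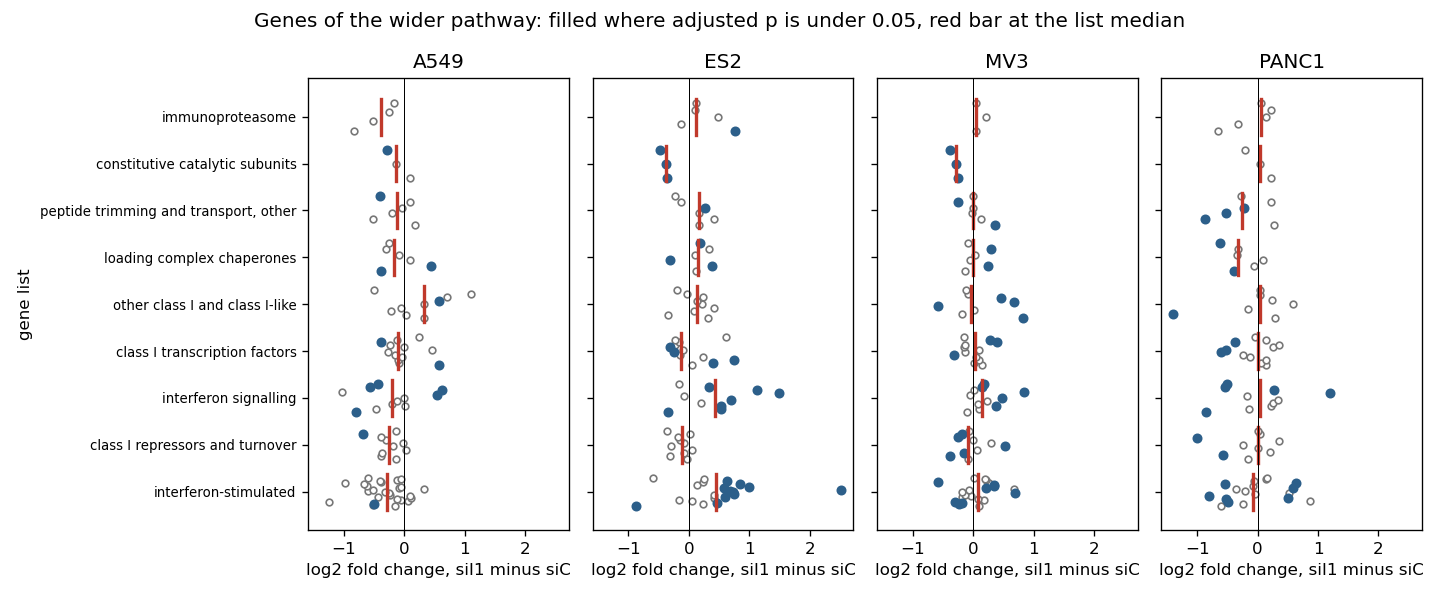
Log2 fold change, siI1 minus siC, of each tested gene in 9 lists of the wider pathway and in each of the 4 lines, filled where the adjusted p was under 0.05, with a red bar at the list median. In ES2 the medians of interferon signalling (0.43) and of interferon-stimulated genes (0.45) lie to the right of 0 and that of the constitutive catalytic subunits (-0.37) to the left.

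The mean pattern of the class I genes was compared with that of all other genes tested in the 4 lines. The values were log2(FPKM + 0.5) less the siC mean of each line, averaged over the 5 class I genes tested in every line. The Pearson correlation of single genes with this mean over the 24 libraries was 0.61 for HLA-E, 0.66 for B2M, 0.72 for HLA-C, 0.73 for ERAP1 and 0.75 for TAPBP, each of which is part of the mean. The 10 genes most like it were AJUBA (0.97), APOL6 (0.91), THBS1 (0.91), NCOA1 (0.91), OPTN (0.91), AHNAK2 (0.91), TRIM44 (0.90), ALDH3B1 (0.89), TRIM2 (0.89) and PSMB10 (0.89). These correlations are a description over 24 libraries, in which libraries of a group are alike and values of siC libraries lie near 0 by construction. AJUBA, whose product is a LIM domain protein of cell junctions, rose in ES2 by a log2 fold change of 0.87 and fell in A549 by 0.62 on the log2 scale. THBS1, the gene of the matrix protein thrombospondin 1, rose in ES2 by 1.26 and fell in A549 by 0.88 on the log2 scale. OPTN, the gene of the autophagy receptor optineurin, rose in ES2 by 0.70 and fell in A549 by 0.63 on the log2 scale. APOL6, of the apolipoprotein L family, rose in ES2 by 1.15 and fell in PANC1 by 0.45 on the log2 scale. In the siI1 libraries the class I mean lay between 0.45 and 0.52 in ES2, between -0.45 and -0.19 in A549, between 0.028 and 0.058 in MV3 and between -0.19 and -0.071 in PANC1. The mean hides differences between its 5 genes. In A549 their log2 fold changes were -1.24 for TAPBP, -0.47 for HLA-C, -0.05 for B2M and ERAP1 and 0.03 for HLA-E. In PANC1 TAPBP (-0.77) and ERAP1 (-0.58) fell, whereas HLA-C (0.19), HLA-E (0.25) and B2M (0.24) lay above 0 without passing. PSMB10 is also among the immunoproteasome genes above.

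**Figure D5:**
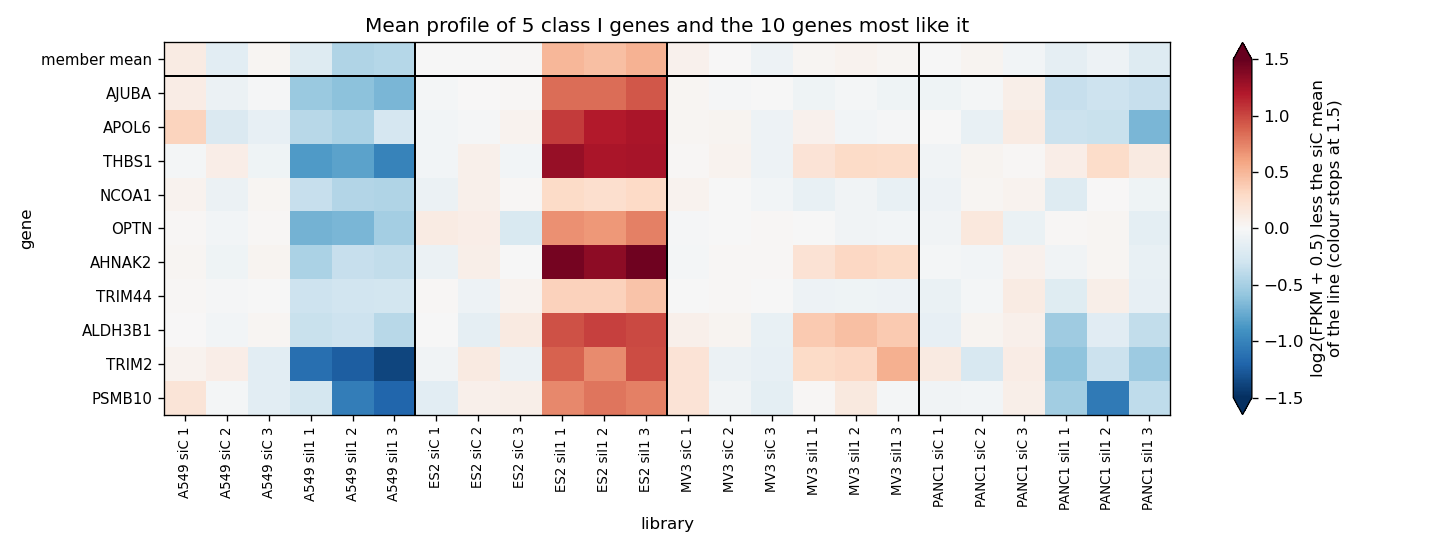
Colour map of log2(FPKM + 0.5) less the siC mean of the line for the mean of 5 class I genes (top row) and the 10 genes most like it, in the 24 libraries, with black lines between cell lines. The siI1 libraries of ES2 are red and those of A549 mostly blue in every row, while those of MV3 and PANC1 are pale in the top row.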

How the data were processed

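Total RNA depleted of ribosomal RNA was sequenced in pairs of reads from 24 libraries, 3 biological replicates in each of 8 groups, as the labels and the study's methods state. Per the submitters' processing notes, the authors removed adapters (cutadapt 1.14), mapped to hg38 (HISAT2 2.1.0), counted per gene (featureCounts 1.5.3) and normalised with edgeR 3.30.3 (TMM). The strand setting of the counting is not given in the sources used here. The authors deposited 1 table per line with FPKM per library. The unit was inferred: 100% of values, multiplied by the listed length, were whole multiples of 1 constant for the library, within 0.01 reads, and this constant also gave reads per library. The authors' fold changes, p-values and FDR in the same tables were not used.

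Each line was tested on its own over 6 libraries, with limma 3.58.1 (R 4.3.3, trend, two-sided) on log2(FPKM + 0.5), where a gene averaged 0.5 FPKM or more, and p-values were adjusted (Benjamini-Hochberg) over every gene tested. Adjusted p-values in the text are from these fits, with n = 3 against 3. Differences between lines were tested in a joint fit of 8 group means. Replicates of a group differed by more than sampling noise (chi-square per gene 1.54 to 15.1 over 24 pairs), and all were counted. Intervals are at 95%.

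The class I genes, the 9 lists of 103 genes and the tests were chosen with earlier results of these data known. Named are the 9 class I genes, IGF2BP1, from each list at most the 5 genes past the threshold with the largest change per line, and the 10 genes most like the class I mean; PSMB8, PSMB9, PDIA3 and genes named for lines in which they did not pass, and IFIT1 where it fell outside the 5, were named after their values were seen. Some genes of the lists as first drawn up are not reported here. Coordinates are from GENCODE release 44 (hg38), and promoter sequences from RefSeq (GRCh38.p14). Alternatives changed the pseudocount, filter, scaling, replicate block, tool (voom on recovered reads), spread estimate and set of libraries. The fits were also run on simulated data with the same spread setting for all genes and lines, which can differ from the spread between these replicates. No result here rests on that run. Other tools were Python 3.11.15, numpy 2.4.6, pandas 2.3.3 and matplotlib 3.10.9.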

Additional observations from a re-analysis of the deposited data

Results flagged for a closer look

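For 3 of the 5 class I genes tested in every line the effect of the knockdown differed between the 4 lines in the limma F test of the difference itself, over 24 libraries and adjusted over all genes tested in every line, where 45.0% of 12816 genes differed. ERAP1 had an adjusted p of 2.76e-06, with log2 fold changes of 0.86 in ES2, -0.58 in PANC1, -0.15 in MV3 and -0.05 in A549. TAPBP had an adjusted p of 7.31e-05, with -1.24 in A549, -0.77 in PANC1, -0.13 in MV3 and 0.15 in ES2. B2M had an adjusted p of 0.00764, with 0.52 in ES2, 0.24 in PANC1, 0.12 in MV3 and -0.05 in A549. All 3 passed in each of the 24 fits that left out 1 library, with adjusted p-values up to 1.86e-05 for ERAP1, 0.000274 for TAPBP and 0.0231 for B2M.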

How the results depend on the processing

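The 5 rises in ES2 stayed between 3 and 6 under the other settings, the lowest with the spread shared over all 24 libraries, where HLA-B was not among the genes fitted and HLA-C did not pass (adjusted p = 0.201). The 1 call in A549 became 0 with the replicate number as a replicate block and 2 with voom. The 3 calls in MV3 became 0 without a filter, 0 at the same sum over all genes, 1 with the replicate block and 1 with the shared spread. The 2 calls in PANC1 became 4 at the same sum over all genes, 3 with voom and 3 with the shared spread. The cause of these shifts was not tested. Leaving out 1 library gave 0 to 1 calls in A549, 4 to 5 in ES2, 0 to 2 in MV3 and 1 to 2 in PANC1. Of all genes, 2533 were called in A549 (1001 with the replicate block, 4176 with voom, 4186 with the shared spread, 1374 to 1797 with 1 library left out), 3973 in ES2 (2612 with the block, 2638 to 3096 with 1 left out), 5853 in MV3 (3577 with the shared spread) and 3927 in PANC1 (8966 at the same sum over all genes, 2278 to 3842 with 1 left out). HLA-C and B2M in PANC1 reversed to -0.49 and -0.50 at the same sum over all genes. Of 250 refits of single genes other than those leaving out 1 library, 228 kept their side of the threshold. A change of sign where neither fit passed is counted among these, as for HLA-E in PANC1, from 0.25 to as low as -0.44. The number of genes differing between lines, 3, became 5 at the same sum over all genes and 5 over protein-coding genes, and was 3 to 4 elsewhere; with the replicate block, B2M did not pass there (adjusted p = 0.0532), nor did HLA-C in ES2 (0.0836). Same-numbered siC and siI1 libraries did not deviate together (correlations -0.06 to 0.07, with 3 of 12 libraries best matched to their own number), so the numbers are not treated as pairs. Depth limits TAP1, TAP2, HLA-B in A549 and NLRC5 in PANC1.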
